A study of Mus musculus with 6 samples.

Results

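The macrophage MS4A family examined here comprised 6 genes, Ms4a4a, Ms4a7, Ms4a4c, Ms4a6b, Ms4a6c and Ms4a6d, out of 56980 genes in the deposited table. They were taken by symbol as the Ms4a genes of myeloid cells, and the family was chosen by its TPM in these same WT and C5aR-/- libraries, which was already known. Their differences between the groups are therefore given as a description, without a test. All 6 were found, and each had a TPM (transcript abundance scaled for transcript length and to the same total in every library) of at least 1 in all 6 libraries.

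ID8 cells, a mouse ovarian cancer line, were injected intraperitoneally into C57BL/6 (WT) mice or into C5aR knockout (C5aR-/-) mice of the same background, all female and 6 to 8 weeks old when acquired. After 2 months, live CD45+CD11b+Ly6G-F4/80+ tumor-associated macrophages (TAMs) were sorted from the tumors, and poly(A) RNA was sequenced. There were 3 libraries from WT and 3 from C5aR-/- mice. The knockout affected every cell of the mouse, the study counts more mice per group than the 3 libraries analysed here, and the labels do not say whether a library came from 1 mouse or from a pool.

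MS4A proteins are tetraspan membrane proteins encoded by a cluster of related genes. The best known are CD20 of B cells (Ms4a1) and the beta chain of the high-affinity IgE receptor of mast cells (Ms4a2), which acts as a signaling amplifier. Ms4a4a and Ms4a7 are markers of differentiated tissue macrophages, MS4A4A associates with the beta-glucan receptor dectin-1 (Clec7a), and variation at the human cluster is linked to the level of soluble TREM2. Ms4a4c, Ms4a6b, Ms4a6c and Ms4a6d are rodent paralogs expressed in myeloid and other leukocytes.

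The knocked-out gene, C5ar1, was at 86.5, 37.3 and 16.2 TPM in WT TAM 1, 2 and 3 and at 0.38, 0.11 and 0.05 TPM in the C5aR-/- libraries, the direction that the labels state. The summed TPM of 10 macrophage markers, most of it from Lyz2, was from 1866 to 7272 in WT and from 1672 to 6653 in C5aR-/- libraries, with all 10 detected. In bulk RNA, fewer macrophages and less RNA per macrophage cannot be told apart. Epithelial and tumor markers were also abundant in the sorted cells, and their summed TPM was from 1494 to 1563 in WT and from 1783 to 2123 in C5aR-/- libraries, with all 6 markers detected. Neutrophil markers summed to a TPM of 622 to 2290 in WT and of 30.6 to 387 in C5aR-/- libraries. Of the 5 mast cell markers, 4 were lower in every C5aR-/- library than in every WT library, as were 12.5% of all genes, while the fifth, Kit, was higher in every C5aR-/- library (54.7, 68.0 and 85.4 TPM) than in WT (28.9, 33.1 and 29.8 TPM). The part of these cells in the values below was not tested, and the depth of the libraries is unknown because TPM does not keep it.

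The 6 genes lie in 1 cluster on chromosome 19 with the other Ms4a genes. In the order of the GENCODE annotation, Ms4a7 is followed by Ms4a4a and Ms4a4c, then by the T cell gene Ms4a4b, and farther along by Ms4a6c, Ms4a6b and Ms4a6d. By coding sequence the members fell into a close group and 3 more distant genes. Ms4a6b was identical to Ms4a6d over 79.8% and to Ms4a6c over 74.0% of the alignment length, and Ms4a6c to Ms4a6d over 66.8%. Ms4a4a and Ms4a7 were identical to the other members over 44.8% to 59.6%. Ms4a4c was 91.7% identical to Ms4a4b, which was no member. Of all stretches of 50 bases in the longest coding transcript, 0% were found in a transcript of another gene for Ms4a4a and Ms4a7, against 2.92% for Ms4a6d, 5.89% for Ms4a6b and 8.48% for Ms4a4c. The share was 56.9% for Ms4a6c, most of it from BE692007, a noncoding gene that overlaps it on the opposite strand. With other Ms4a genes alone, Ms4a6c shared 6.08%. Matches on either strand were counted, while the study describes dUTP labeling of the second strand and paired reads longer than these stretches. Where neither strand nor the paired read tells the genes apart, reads from these shared stretches could have been divided between them. The estimates of the Ms4a6 genes and of Ms4a4c may thus be less certain than those of Ms4a4a and Ms4a7, which was not tested.

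**Figure D1:**
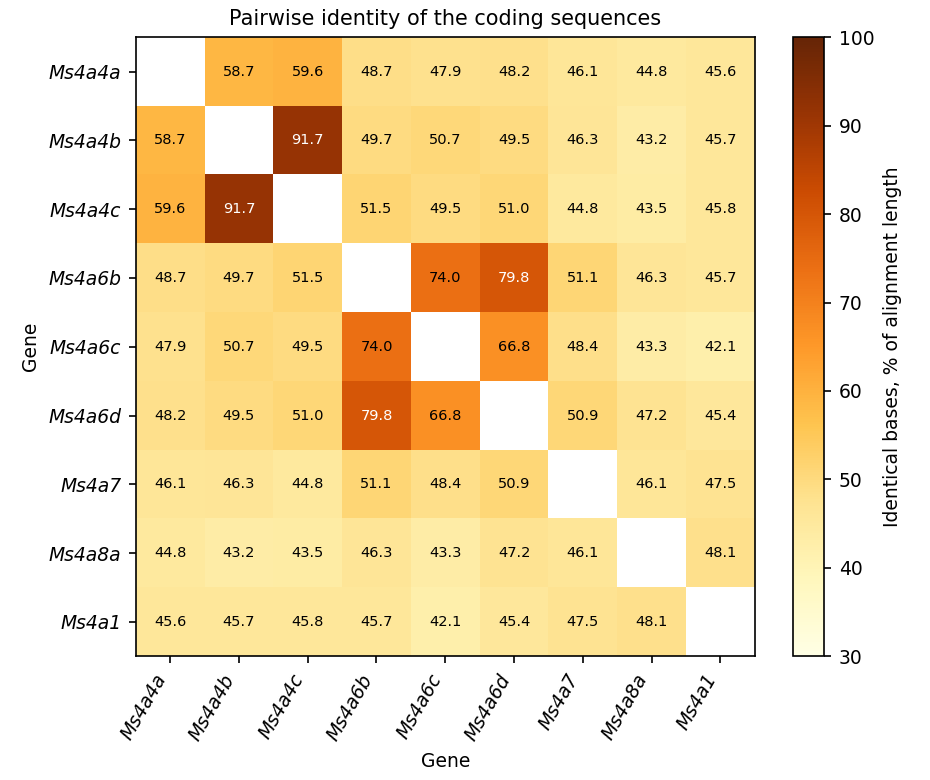
Each square gives the identical bases of 2 coding sequences as a percentage of their alignment length, for the 6 members with Ms4a4b, Ms4a8a and Ms4a1. Ms4a4b with Ms4a4c (91.7%) and the 3 Ms4a6 genes (66.8% to 79.8%) stand out.

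The sequences before the start sites are shown for 4 members, the Ms4a6b and Ms4a6c pair because their stretches are alike and Ms4a7 and Ms4a4a because their differences between the groups were the largest. They are the 250 bases before the start of transcription, 5′ to 3′ on the strand of the gene, from RefSeq on build GRCm38.p6. RefSeq entries were matched for 5 of the 6 members, all except Ms4a6d. Capitals mark runs of at least 20 bases that are identical in Ms4a6b and Ms4a6c. The Ms4a6c window is chr19:11469118-11469367 (plus strand), the Ms4a6b window chr19:11518309-11518558 (plus strand), the Ms4a4a window chr19:11375238-11375487 (plus strand) and the Ms4a7 window chr19:11336147-11336396 (minus strand).
Ms4a6c: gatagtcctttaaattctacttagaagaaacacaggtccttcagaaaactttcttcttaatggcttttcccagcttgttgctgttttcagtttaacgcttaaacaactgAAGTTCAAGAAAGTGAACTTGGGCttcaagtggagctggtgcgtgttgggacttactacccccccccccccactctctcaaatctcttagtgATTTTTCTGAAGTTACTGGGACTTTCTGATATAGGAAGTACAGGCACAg
Ms4a6b: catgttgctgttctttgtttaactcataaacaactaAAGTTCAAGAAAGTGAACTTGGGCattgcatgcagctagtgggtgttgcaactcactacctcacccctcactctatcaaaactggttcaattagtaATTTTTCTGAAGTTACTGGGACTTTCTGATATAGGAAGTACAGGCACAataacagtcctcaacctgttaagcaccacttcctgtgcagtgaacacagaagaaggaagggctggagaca
Ms4a4a: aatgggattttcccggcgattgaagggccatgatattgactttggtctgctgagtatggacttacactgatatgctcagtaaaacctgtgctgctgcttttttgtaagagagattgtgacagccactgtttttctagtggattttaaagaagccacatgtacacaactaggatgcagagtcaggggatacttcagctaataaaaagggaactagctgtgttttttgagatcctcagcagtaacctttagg
Ms4a7: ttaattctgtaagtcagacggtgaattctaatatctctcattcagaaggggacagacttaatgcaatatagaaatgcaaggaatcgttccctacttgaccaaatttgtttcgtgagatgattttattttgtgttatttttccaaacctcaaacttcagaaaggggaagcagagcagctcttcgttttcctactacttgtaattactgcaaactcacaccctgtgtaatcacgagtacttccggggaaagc

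The windows of Ms4a6b and Ms4a6c shared runs of 24 and 48 bases, and 0 of the windows of genes outside the family among the 32851 in the table held either run. The longer run began 49 bases before the start site of Ms4a6c and 118 bases before that of Ms4a6b. No other pair of the 5 members with a window shared a run of at least 20 bases. Ms4a6d had no window, so it was not searched for runs or motifs. Of 5 motifs searched on both strands, GAGGAA (the core bound by PU.1, the lineage factor of macrophages) was in the Ms4a4c window, 61 bases before the start, and in 23.3% of all windows. TGANTCA (AP-1) was in the window of an alternative start of Ms4a7 and in 6.75% of all windows. The interferon response element, TATAAA and CCAAT had 0 matches in the windows of these 5 members, and 2.98%, 12.4% and 33.8% of all windows held them. A match of letters says nothing of binding.

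Ms4a4a, the dectin-1 partner, had a TPM of 16.0, 7.11 and 3.68 in WT TAM 1, 2 and 3 and of 92.1, 30.9 and 13.3 in C5aR-/- TAM 1, 2 and 3. The groups overlapped, because C5aR-/- TAM 3 lay below WT TAM 1. It averaged 8.94 ± 6.38 TPM over the WT libraries (SD, n = 3) and 45.4 ± 41.3 TPM over the C5aR-/- libraries (SD, n = 3). The difference in mean log2(TPM + 1), C5aR-/- minus WT, was 2.01 (standard error 0.75), the largest of the 6 members, and it was 1.31 without C5aR-/- TAM 1. On this scale the ratio of a weakly expressed gene comes out smaller than it is.

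Ms4a7, the other marker of differentiated macrophages, had a TPM of 7.08, 4.64 and 8.38 in WT and of 41.4, 16.4 and 15.9 in C5aR-/- libraries. All 3 C5aR-/- libraries lay above the 3 WT libraries, and C5aR-/- TAM 1 lay far above the other two. It averaged 6.70 ± 1.90 TPM over the WT libraries (SD, n = 3) and 24.5 ± 14.6 TPM over the C5aR-/- libraries (SD, n = 3), and the log2 difference was 1.62 (standard error 0.40). Of the 6 members, it had the narrowest range when 1 library was left out relative to its size, from 1.18 to 1.85.

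Ms4a4c had a TPM of 18.5, 17.4 and 16.9 in WT and of 61.3, 34.7 and 19.8 in C5aR-/- libraries. The groups did not overlap, although C5aR-/- TAM 3 was only slightly above WT TAM 1. The WT libraries were nearly equal (17.6 ± 0.85, SD, n = 3), and the C5aR-/- libraries spread widely (38.6 ± 21.0, SD, n = 3). The log2 difference was 0.95 (standard error 0.37) and 0.55 without C5aR-/- TAM 1. A part of its reads could belong to Ms4a4b, its near copy in T cells, which averaged 25.6 ± 15.4 TPM over the WT libraries (SD, n = 3) and 9.79 ± 6.12 TPM over the C5aR-/- libraries (SD, n = 3).

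Ms4a6d, whose product binds the inhibitory receptor VSIG4, had a TPM of 65.7, 30.1 and 25.4 in WT and of 121.9, 68.6 and 47.0 in C5aR-/- libraries. C5aR-/- TAM 3 lay below WT TAM 1, so the groups overlapped. The log2 difference was 0.97 (standard error 0.45), and 0.61 without C5aR-/- TAM 1.

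Ms4a6c had a TPM of 78.5, 38.2 and 33.4 in WT and of 118.7, 77.6 and 52.3 in C5aR-/- libraries. It followed Ms4a6d library by library, and WT TAM 1 lay above C5aR-/- TAM 2 and 3. Its log2 difference was 0.74 (standard error 0.40), 0.45 without C5aR-/- TAM 1 and 1.11 without WT TAM 1. BE692007, the antisense gene that overlaps it, had a TPM of only 4.81, 5.65 and 8.14 in WT and of 5.12, 3.73 and 1.12 in C5aR-/- libraries.

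Ms4a6b, a paralog known also from T cells, had a TPM of 35.2, 37.2 and 36.5 in WT and of 90.4, 42.0 and 21.6 in C5aR-/- libraries. The WT values were nearly the same, while C5aR-/- TAM 1 was the highest and C5aR-/- TAM 3 the lowest of the 6 libraries. Its log2 difference was 0.26 (standard error 0.46), smaller than the spread between replicates, and its sign depended on 1 library. It was -0.26 without C5aR-/- TAM 1 and 0.75 without C5aR-/- TAM 3. Across the 6 libraries the Pearson correlation of log2(TPM + 1) was 0.63 (Spearman 0.37) between Ms4a6b and Ms4a6c, against 0.996 (0.94) between Ms4a6c and Ms4a6d. These values describe 6 libraries from 2 groups, and macrophage marker levels varied between the libraries within each group.

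**Figure D2:**
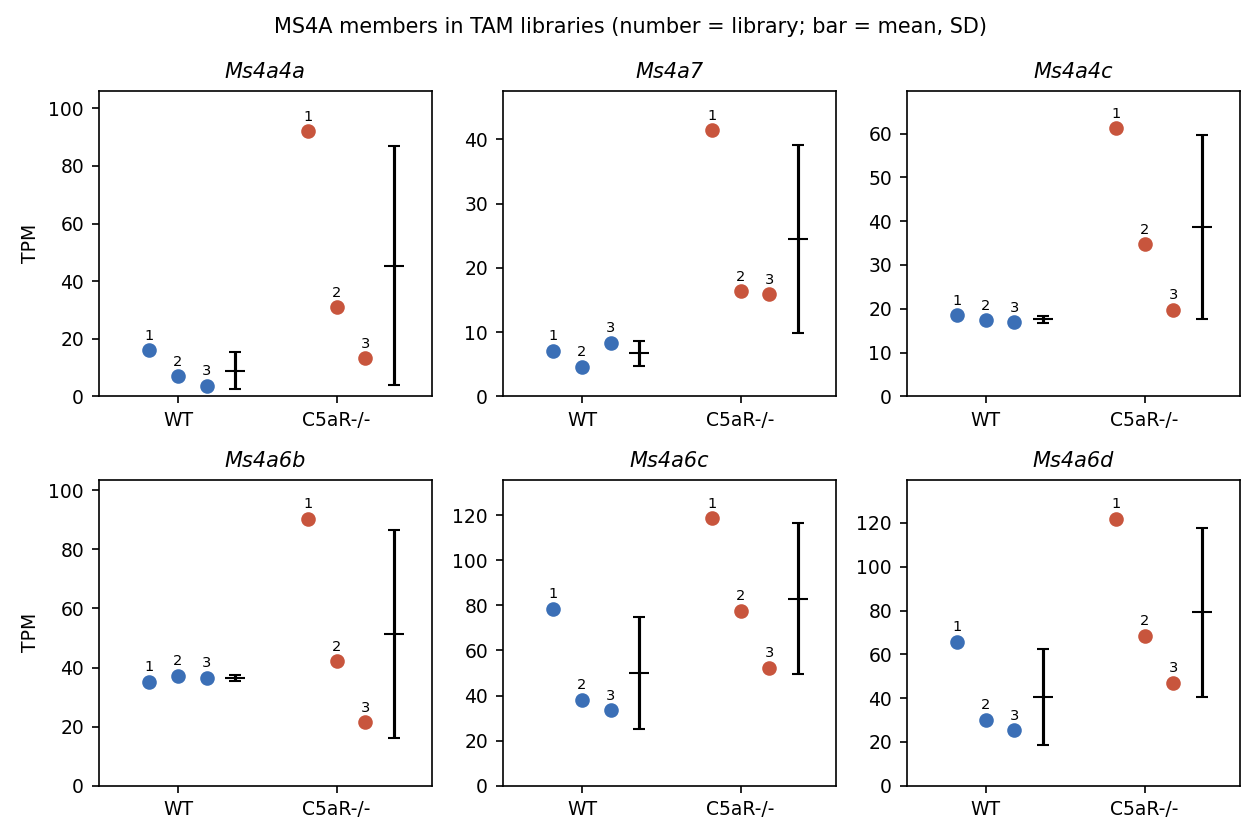
TPM of each member (vertical axis, from 0) in the 3 WT (blue) and 3 C5aR-/- (red) libraries, with the library number at each point and the mean with SD at the right of each group. C5aR-/- TAM 1 is the highest point in all 6 panels, and the groups are apart for Ms4a7 and Ms4a4c.

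Together, 6 of 6 members had a higher mean log2(TPM + 1) in C5aR-/- TAMs, against 44.5% of the 14776 genes that passed the filter on low TPM. Their median difference was 0.96, and that of all genes tested was -0.05. Without C5aR-/- TAM 1, 5 of 6 were higher and the median was 0.58. The groups did not overlap for 2 of the 6, both higher in C5aR-/- TAMs, where 8.84% of all genes were apart in that direction and 21.3% in either. By size, 2 of 6 had a log2 difference of at least 1, as did 3.07% of all genes in that direction. Since the genes were chosen with these values known, no support is drawn from the counts. In the fit across all genes, limma called 0 genes (0%) past both an adjusted p of 0.05 and a 2-fold difference, while 2133 genes (14.4%) had an unadjusted p under 0.05 whatever the size. With a 2-fold difference as well, 4.96% of all genes remained below that unadjusted p, 2.13% higher and 2.84% lower in C5aR-/- TAMs.

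C5aR-/- TAM 1 had the highest TPM of the 6 libraries for 6 of 6 members, against 21.0% of all genes tested, and C5aR-/- TAM 3 had the lowest of its group for all 6. The summed TPM of the members was 221, 135 and 124 in WT and 526, 270.1 and 169.9 in C5aR-/- libraries, so C5aR-/- TAM 3 lay below WT TAM 1. In WT TAMs the highest mean TPM was that of Ms4a6c (50.02 ± 24.7, SD, n = 3), followed by Ms4a6d (40.4 ± 22.0), Ms4a6b (36.3 ± 0.99), Ms4a4c, Ms4a4a and Ms4a7. The libraries of the 3 Ms4a6 genes overlapped with each other, as did those of Ms4a4a and Ms4a7, while Ms4a6b was apart from Ms4a4c and Ms4a4c from Ms4a4a. In C5aR-/- TAMs the order was Ms4a6c (82.9 ± 33.5, SD, n = 3), Ms4a6d (79.2 ± 38.5), Ms4a6b (51.3 ± 35.4), Ms4a4a, Ms4a4c and Ms4a7, and all neighbors overlapped. Ms4a4a took 7.26%, 5.28% and 2.96% of the summed TPM in WT and 17.5%, 11.4% and 7.84% in C5aR-/- libraries, without overlap. The share of Ms4a6b was 15.9%, 27.6% and 29.4% in WT and 17.2%, 15.6% and 12.7% in C5aR-/- libraries.

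The members were also read against the macrophage content of each library, as the mean log2(TPM + 1) of the 10 macrophage markers. This index was 7.22, 6.14 and 5.82 in WT and 7.58, 6.78 and 5.97 in C5aR-/- libraries, so that it overlapped between the groups and was highest in C5aR-/- TAM 1. Ms4a4a minus the index was -3.13, -3.12 and -3.59 in WT and -1.04, -1.79 and -2.13 in C5aR-/- libraries. With the index subtracted, the groups were thus apart for Ms4a4a, and they were apart in the same direction for Ms4a4c, Ms4a6c and Ms4a6d, as they were for 0.474% of all genes. This subtraction was chosen after seeing the data, and other measures of content separated other members. Per TPM of the macrophage markers 3 of 6 were apart (Ms4a4a, Ms4a4c and Ms4a6d), and per TPM of the leukocyte gene Ptprc 5 of 6 were, with Ms4a6c overlapping. Most of the marker TPM came from 1 gene, Lyz2, in every library (5812 of 7272 TPM in WT TAM 1, 1151 of 1672 TPM in C5aR-/- TAM 3). The separation was narrow for Ms4a6c, with -0.71 in WT TAM 3 and -0.67 in C5aR-/- TAM 1, and for Ms4a4c, with -1.66 in WT TAM 3 and -1.63 in C5aR-/- TAM 2. For Ms4a7, WT TAM 3 (-2.59) lay just above C5aR-/- TAM 2 (-2.67), and for Ms4a6b the groups overlapped. With the index as a covariate in the fit, the difference was 1.45 for Ms4a4a, 1.45 for Ms4a7, 0.73 for Ms4a4c, 0.63 for Ms4a6d, 0.44 for Ms4a6c and 0.0049 for Ms4a6b, with a median of 0.68. The values of Ms4a6c and Ms4a6d were 0.74 and 0.97 without the covariate.

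**Figure D3:**
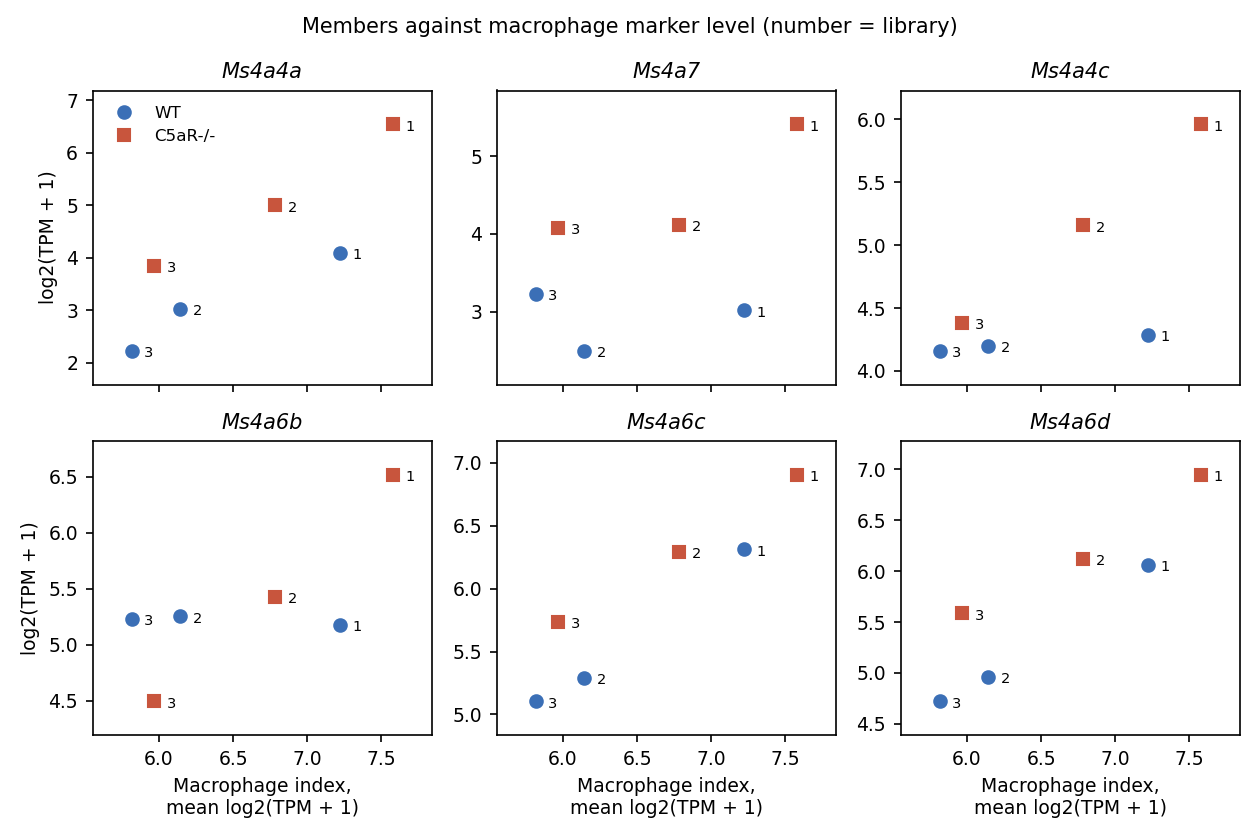
Level of each member as log2(TPM + 1) (vertical axis) against the macrophage index, the mean log2(TPM + 1) of 10 macrophage markers (horizontal axis), for WT (blue circles) and C5aR-/- (red squares) libraries, numbered. Ms4a4a and Ms4a6d are higher at a higher index within both groups and lie higher in C5aR-/- libraries at a like index, whereas Ms4a6b is nearly level across the WT libraries.

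The other Ms4a genes were examined in the same libraries. Of 13 further Ms4a symbols in the table, 5 were listed at 0 in every library, and 5 passed the filter together with the related Tmem176a and Tmem176b. Of these 7 genes, 1 was higher and 6 were lower in C5aR-/- TAMs, and the median log2 difference was -0.50. In limma, 0 of 7 passed an adjusted p of 0.05. An unadjusted p under 0.05, found for 14.4% of all genes, was found for 2 of the 7, Ms4a14 (higher) and Tmem176a (lower). The gene higher in C5aR-/- TAMs was Ms4a14, the neighbor of Ms4a7, with a TPM of 0.32, 0.41 and 0.45 in WT and of 4.77, 1.02 and 1.20 in C5aR-/- libraries (log2 difference 1.08 with a standard error of 0.43, limma adjusted p = 0.33), and the difference was 0.60 without C5aR-/- TAM 1. Ms4a14 was under a TPM of 1 in WT and passed the filter only through the C5aR-/- libraries. Its p-values and its place among the 7 therefore carry no support. The genes from Ms4a14 through Ms4a7 and Ms4a4a to Ms4a4c thus formed a run of neighbors with higher means in C5aR-/- TAMs, interrupted by genes at or near 0. No support is drawn from Ms4a14 in this run.

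Ms4a8a, a macrophage gene of the cluster that is no member, had a TPM of 61.6, 25.0 and 18.5 in WT and of 41.0, 21.9 and 10.5 in C5aR-/- libraries. Its log2 difference was -0.50 with a standard error of 0.58 (limma adjusted p = 0.73), within the spread between replicates, and it was -0.0108 without WT TAM 1, -0.0278 without C5aR-/- TAM 3 and -0.96 without C5aR-/- TAM 1. With the macrophage index subtracted, Ms4a8a was lower in C5aR-/- libraries, whereas Ms4a4a, Ms4a4c, Ms4a6c and Ms4a6d were higher. For Ms4a7 and Ms4a6b the groups overlapped. Ms4a8a minus the index was -1.25, -1.44 and -1.53 in WT and -2.18, -2.27 and -2.44 in C5aR-/- libraries, without overlap, where 3.97% of all genes were apart in that direction. With the index as a covariate its difference was -0.95 (limma adjusted p = 0.063). Tmem176a, which encodes an MS4A-like cation channel protein, was lower in all 3 C5aR-/- libraries (269.5, 265 and 218 TPM) than in the WT libraries (325, 307 and 389 TPM), with a log2 difference of -0.44 (standard error of 0.15, limma adjusted p = 0.28). Of all genes, 12.5% were lower without overlap.

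**Figure D4:**
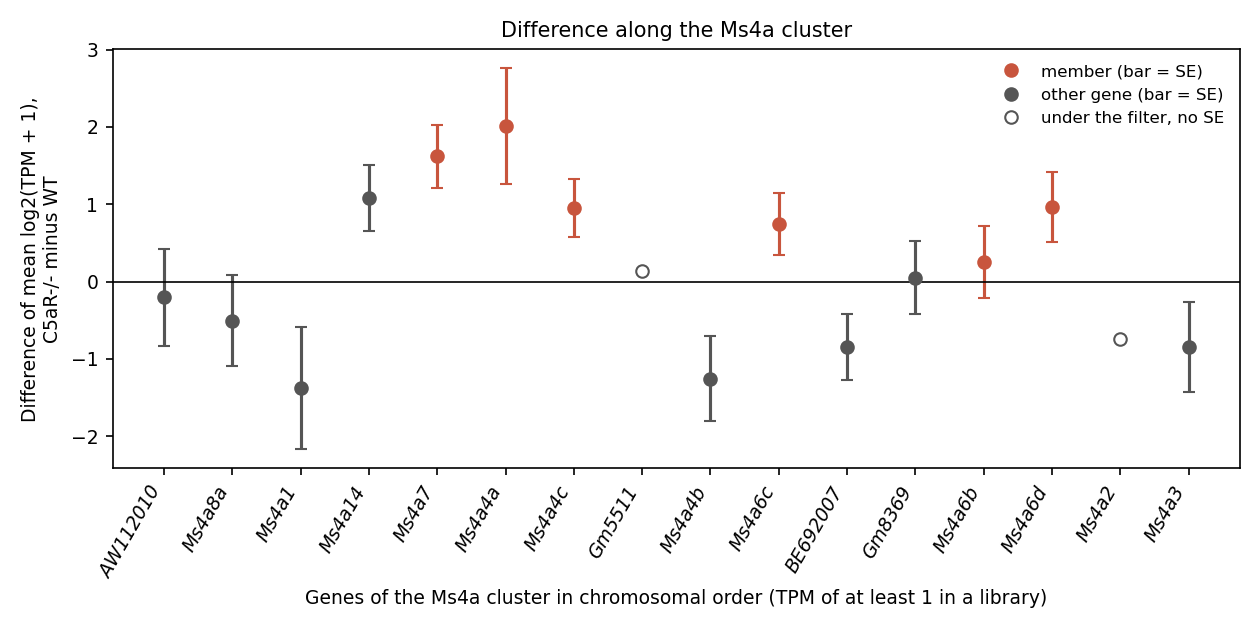
Difference of mean log2(TPM + 1), C5aR-/- minus WT (vertical axis), for the 16 genes of the cluster that reached a TPM of 1 in any library, in chromosomal order and not to distance. Filled points with standard errors passed the filter, and members are red. The 6 red points lie above 0, as do Ms4a14, Gm5511 and Gm8369, while the other genes lie below.

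Genes of the cluster that mark other cells are given beside the markers of those cells, whose part in their values was not tested. Ms4a1, the CD20 gene, had a TPM of 14.5, 19.2 and 4.42 in WT and of 10.3, 4.36 and 0.60 in C5aR-/- libraries, and the summed TPM of 4 other B cell markers was 126, 147 and 29.2 in WT and 158, 50.2 and 8.56 in C5aR-/- libraries. Ms4a4b had a TPM of 10.9, 24.2 and 41.6 in WT and of 16.9, 6.49 and 6.03 in C5aR-/- libraries, and 5 T cell markers summed to 14.5, 35.8 and 63.9 in WT and to 37.6, 34.7 and 12.1 in C5aR-/- libraries. Ms4a2 was under the filter, with a TPM of 0.77, 1.01 and 0.38 in WT and of 0, 0.06 and 0 in C5aR-/- libraries. Fcer1a, the alpha chain of the same IgE receptor, had a TPM of 2.94, 1.95 and 3.66 in WT and of 0.15, 0 and 0 in C5aR-/- libraries (log2 difference -1.85 with a standard error of 0.26, limma adjusted p = 0.067). Fcer1a passed the filter only through the WT libraries, where it was higher, so this p-value carries no support.

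A list of 16 genes of proteins that partner with or signal beside MS4A proteins was examined next. All 16 were tested, 10 had a higher and 6 a lower mean in C5aR-/- TAMs, and the median log2 difference was 0.36. In limma, 0 passed an adjusted p of 0.05. At an unadjusted p under 0.05, which 14.4% of all genes had, there were 6 of the 16, with Clec7a, Trem2, Fcgr1 and Fcgr4 higher and Fcer1a and Tnfrsf18 lower. Of these, Fcer1a passed the filter only through the WT libraries, so no support is drawn from it. Clec7a, which encodes dectin-1, had a TPM of 102.7, 62.3 and 75.4 in WT and of 288, 174 and 89.0 in C5aR-/- libraries (log2 difference 1.06 with a standard error of 0.42, limma adjusted p = 0.33). Trem2, a lipid receptor of macrophages, had a TPM of 69.1, 38.2 and 21.4 in WT and of 189, 104 and 54.5 in C5aR-/- libraries (log2 difference 1.39 with a standard error of 0.55, limma adjusted p = 0.33). Both receptors had overlapping groups, and both were highest in C5aR-/- TAM 1, like the members. For genes downstream of these receptors, the log2 difference was -0.17 for the kinase Syk (standard error 0.72) and -0.36 for the adaptor Card9 (standard error 0.45). It was 0.0016 for the Trem2 adaptor Tyrobp (standard error 0.42). Whether these differed from the receptors was not tested. Among Fc gamma receptors of the list, Fcgr4 was higher in all 3 C5aR-/- libraries (116, 102 and 84.0 TPM) than in WT (67.6, 50.7 and 59.9 TPM), with a log2 difference of 0.75 (standard error of 0.17, limma adjusted p = 0.16). So was Fcgr1 (26.6, 18.2 and 16.9 against 13.6, 8.60 and 11.3 TPM), with a log2 difference of 0.82 (standard error of 0.24, limma adjusted p = 0.22). The groups overlapped for Fcgr2b and Fcgr3. Of all genes, 8.84% were higher without overlap.

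Of a list of 11 genes known with MS4A4A from alternatively activated or resident macrophages, all 11 had a higher mean in C5aR-/- TAMs, against 44.5% of all genes. Their median log2 difference was 0.47, and 0 passed an adjusted p of 0.05 in limma or an unadjusted p of 0.05. The groups overlapped for all of them. Of the 10 macrophage markers, 7 had a higher mean in C5aR-/- TAMs, and their median log2 difference was larger, at 0.61. Other lists went the other way. A higher mean was found for 0 of the 4 large peritoneal macrophage markers tested (median log2 difference -1.68). Of these 4, 2 (Timd4 and Icam2) were lower without overlap, as were 12.5% of all genes. Among the 5 monocyte markers 1 had a higher mean (median log2 difference -1.08), and the groups overlapped for all 5. The part of macrophage content in the values of the 11 genes was not tested. The mannose receptor Mrc1 had a TPM of 30.3, 14.9 and 3.34 in WT and of 97.9, 33.2 and 12.3 in C5aR-/- libraries, an order like that of Ms4a4a. The complement genes C1qa, C1qb and C1qc differed by 0.47 to 0.48 on the log2 scale. Type I interferon genes went the other way, with 11 of 12 lower in C5aR-/- TAMs and a median log2 difference of -1.16, and 0 passed an adjusted p of 0.05 in limma (6 had groups that did not overlap, all lower, where 12.5% of all genes were apart in that direction). Of the 12, 6 had an unadjusted p under 0.05, against 14.4% of all genes, and 5 of these were also at least 2-fold lower, against 2.84% of all genes.

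The genes most like the members were sought among 1650 tested genes outside the family with a mean TPM of at least 10 and a standard deviation of log2(TPM + 1) of at least 0.5, by Pearson correlation over the 6 libraries. The mean pattern of the 6 members was most like those of Gpx3 (0.99, Spearman 1), an extracellular glutathione peroxidase, Lipa (0.99, Spearman 0.94), the lysosomal acid lipase, and Clec7a (0.98, Spearman 0.94). Gpr65, a proton-sensing receptor, and Gprc5a followed at 0.98. For Ms4a4a alone the closest were Gpx3, Tlr8 and Trem2 (0.993 to 0.995). For Ms4a6c and Ms4a6d, Ly86 was among the closest (0.98 and 0.99), with Cd68 beside Ms4a6c (0.98). For Ms4a6b the closest were Ctps2, H2-Oa and 2610528A11Rik (0.99). They were Inpp5j, Dusp14 and Rps12-ps3 for Ms4a7 (0.99), and Fyb, Slc40a1 and Ckb for Ms4a4c (0.99 to 0.996). None of the genes closest to Ms4a6b, Ms4a7 or Ms4a4c was among the closest of another member. These correlations rest on 6 points from 2 groups and are a description of these libraries only. The part of macrophage content in them was not tested.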

How the data were processed

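RNA of 3 WT and 3 C5aR-/- TAM samples was measured by RNA-seq, and groups were taken from the sample titles. The authors used fastp for trimming, HISAT2 for alignment and StringTie for quantification, and they deposited gene TPM values and the mean TPM of each group. The submitters' processing notes also list RSEM, DESeq2 and mm10, without versions. Of the gene IDs, 2147 are newer than GENCODE M21 (GRCm38), so no gene coordinates are given from it. Gene names (52073 of 56980 matched), gene order, strand and type, and transcript sequences were taken from GENCODE M21. The study's count-based tests could not be run on TPM.

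The 14776 genes that reached a TPM of 1 in 3 or more libraries were compared on log2(TPM + 1) with limma 3.58.1 (eBayes with trend, R 4.3.3) and Benjamini-Hochberg adjustment, and the fit was tested on simulated data. Depth is unknown, so no counting error is given. P-values measure only the spread between these libraries. Also tried were 0.1 as pseudocount, all genes unfiltered, a minimum TPM of 5, quantile and median-of-ratios normalization, the replicate number as a block, a macrophage index covariate, eBayes without trend, and leaving out each library.

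The members, lists and tests were chosen with earlier results of these data known. Named genes are the members, detected Ms4a genes, Tmem176a and Tmem176b, C5ar1, genes of the lists (MS4A partners, MS4A4A-associated macrophage genes, interferon genes, cell type markers), and the 5 or 3 genes most like the mean or a member. BE692007 was named after its values were seen. Coding sequences (GENCODE M21) were aligned with Biopython 1.88.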

Additional observations from a re-analysis of the deposited data

How the results depend on the processing

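Of the 84 differences of single members under the 14 other fits, 83 kept their direction. The exception was Ms4a6b (0.26), at -0.26 without C5aR-/- TAM 1 and 0.75 without C5aR-/- TAM 3. The other 5 members kept their direction under all of them. The median of the members (0.96) lay between 0.58 and 1.31 when single libraries were left out, and 5 or 6 members were then higher in C5aR-/- TAMs. The groups were apart for 2 members, for 4 with the index subtracted, for 3 per TPM of macrophage markers and for 5 per TPM of Ptprc, alternatives chosen after seeing the data.

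In limma, 0 genes passed the adjusted threshold with a 2-fold difference, with 2133 at an unadjusted p under 0.05. The adjusted count of 0 became 36 given the macrophage index covariate, 2 under eBayes without trend, and 0 to 356 on leaving out single libraries, the highest without C5aR-/- TAM 1. The count at an unadjusted p with a 2-fold difference (733) became 475 at a minimum TPM of 5, which tests fewer genes, and 567 to 1266 on leaving out single libraries, again the highest without C5aR-/- TAM 1 (619 higher and 647 lower). Genes whose groups did not overlap (3151) became 3645 to 6209, since fewer values then have to be apart. The log2 difference of C5ar1 (-5.04, limma adjusted p = 0.067) passed given the covariate (-5.36) and without C5aR-/- TAM 1, and leaving out single libraries gave -5.63 to -4.45. Other causes were not tested.

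Whether replicate numbers mark pairs could not be settled from these 6 libraries. In their deviations from the group mean, same-numbered libraries correlated at 0.19, -0.01 and 0.27, and differently numbered ones at -0.23 to 0.09. Libraries 1 and 3 correlated best with their own number, and library 2 did not. The macrophage index fell from library 1 to library 3 in both groups. A fit with the replicate block had 0 genes past the adjusted threshold, 811 past the unadjusted one, and a member median of 0.96. Of the 7 other genes of the family tested, 0 passed the adjusted threshold in any of these 14 fits. Precision at low TPM is limited by a depth that is unknown.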
